A study of Mus musculus with 9 samples.

Results

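The genes described here are the D-type cyclins Ccnd1, Ccnd2 and Ccnd3, their partner kinases Cdk4 and Cdk6, and the CDK inhibitors Cdkn1a, Cdkn1b, Cdkn2a, Cdkn2b and Cdkn2c, 10 of the 21896 protein-coding genes in RefSeq. Their regions were chosen by name: every PLAGL1 and H3K4me3 peak that the authors' annotation gave to one of these genes, and every KLF4 site that overlapped such a peak or lay within 20 kb of one. This gave 8 of 3463 PLAGL1 peaks, 12 of 16251 H3K4me3 peaks and 26 of 21130 KLF4 sites. The presence of peaks near these genes is therefore a description, and the genes were picked with results of these data known. Ccnd2 and Cdk6 had no peak under their names and entered with 0 regions.

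D-type cyclins bind CDK4 or CDK6 and start the phosphorylation of the retinoblastoma protein, which releases E2F factors and lets a cell pass from G1 into S phase. The INK4 proteins encoded by Cdkn2a, Cdkn2b and Cdkn2c bind CDK4 and CDK6 and block this step, and the CIP/KIP proteins p21 (Cdkn1a) and p27 (Cdkn1b) inhibit cyclin-bound kinases more widely. PLAGL1 is a zinc-finger transcription factor known for halting the cell cycle when overexpressed, and KLF4 is a zinc-finger factor known to activate Cdkn1a. Osteoblast differentiation is accompanied by withdrawal from the cell cycle.

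The series holds 9 CUT&Tag libraries from mouse periosteal stem/progenitor cells of the mandibular angle, taken at 8 weeks of age and grown in culture. CUT&Tag tethers a transposase to an antibody's target, so that DNA beside the target is released and sequenced. The groups were HA-tagged PLAGL1 (1 library) and its IgG control (1 library), both from Plagl1fl/fl cells given Plagl1 lentivirus; tagged KLF4 (KLF4-FLAG) in cells called Plagl1ko, of genotype Ctsk-iCre;Plagl1fl/fl (3 libraries), and the same factor in control cells of genotype Plagl1fl/fl (3 libraries); and H3K4me3, a histone mark of active promoters, in Plagl1fl/fl cells without a named virus (1 library). All cells had 3 days of osteogenic induction, in which dexamethasone (1e-07 M), β-glycerophosphate (5 mM) and ascorbic acid (50 µg/ml) were added. In the Plagl1ko cells the Cre is driven by Ctsk, which encodes cathepsin K, so that deletion reaches only cells that have used that promoter; its extent was not analysed here. Both tagged factors came from lentivirus at a multiplicity of infection (virus per cell) of 10, so binding of the cells' own proteins was not measured. The treatment labels of the 6 KLF4 libraries give each its own vector name, Klf7 to Klf9 in Plagl1ko and Klf4 to Klf6 in control, so vector name and genotype cannot be told apart; their titles give KLF4 for all, which is used here. Nothing says whether replicates came from separate animals, so the p-values measure only the spread between these libraries, which may be technical.

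H3K4me3 was checked against markers of cell type. A peak at most 3 kb from a transcription start site (TSS) was found at 9 of 9 periosteal progenitor markers (scores 273 to 1609) and at 6 of 6 macrophage markers (scores 35 to 276). The counts were 1 of 5 for endothelial markers (score 179), 1 of 4 for Schwann cell markers (score 50), 0 of 5 for muscle and 0 of 4 for epithelial markers. In such bulk material a mark carried by few cells and a weak mark in all cells cannot be told apart, and the part of macrophages in the values given here was not tested. Peak scores are the authors' own values per peak, with 1 library per list and no replicates. Read depth is unknown for all 9 libraries, and values per library for KLF4 were not analysed here.

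The promoter windows of 4 genes show the range of the results at the sequence level. Each holds the 250 bases before a start in RefSeq (GRCm38.p6, printed in the direction of transcription). Capitals mark GGGCGG boxes and GGGTG letters, the cores of elements bound by SP and KLF proteins, on either strand. The first 2 windows lay at starts with H3K4me3, PLAGL1 and KLF4 together, the third at a start with PLAGL1 and no KLF4 site, the fourth at a start with H3K4me3 alone, and the last at a start with KLF4 and no PLAGL1 peak.
Cdk4, chr10:127063285-127063534, plus strand: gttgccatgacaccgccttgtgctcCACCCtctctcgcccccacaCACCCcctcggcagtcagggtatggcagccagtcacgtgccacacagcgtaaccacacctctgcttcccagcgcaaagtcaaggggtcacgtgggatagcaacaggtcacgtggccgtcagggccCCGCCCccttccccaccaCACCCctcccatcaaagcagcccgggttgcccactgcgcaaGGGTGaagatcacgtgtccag
Cdkn2c, chr4:109666757-109667006, minus strand: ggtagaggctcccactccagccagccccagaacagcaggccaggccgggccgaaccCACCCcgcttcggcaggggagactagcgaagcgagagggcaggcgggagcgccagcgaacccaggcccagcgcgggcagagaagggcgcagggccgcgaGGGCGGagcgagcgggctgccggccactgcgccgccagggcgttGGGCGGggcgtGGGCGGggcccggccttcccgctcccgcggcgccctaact
Cdkn2a Ink4a start, chr4:89282193-89282442, minus strand: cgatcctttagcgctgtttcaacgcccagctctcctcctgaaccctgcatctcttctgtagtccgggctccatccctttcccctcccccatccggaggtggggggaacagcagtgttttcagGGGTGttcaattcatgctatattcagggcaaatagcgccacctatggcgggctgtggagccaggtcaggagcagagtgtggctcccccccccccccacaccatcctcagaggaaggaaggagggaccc
Cdkn2a Arf start, chr4:89294620-89294869, minus strand: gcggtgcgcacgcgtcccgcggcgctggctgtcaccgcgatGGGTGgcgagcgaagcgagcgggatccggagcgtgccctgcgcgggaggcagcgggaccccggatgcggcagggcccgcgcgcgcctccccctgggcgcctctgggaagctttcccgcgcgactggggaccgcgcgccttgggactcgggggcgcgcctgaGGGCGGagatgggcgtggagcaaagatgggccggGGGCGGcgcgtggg
Cdkn2b, chr4:89311033-89311282, minus strand: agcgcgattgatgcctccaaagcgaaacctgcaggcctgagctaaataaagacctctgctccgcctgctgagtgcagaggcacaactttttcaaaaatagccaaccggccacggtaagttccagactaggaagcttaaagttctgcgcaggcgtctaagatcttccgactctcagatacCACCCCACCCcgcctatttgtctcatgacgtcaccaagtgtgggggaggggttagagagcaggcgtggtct
The Cdk4 window had 4 GGGTG matches and 1 GGGCGG match, and the Cdkn2c window had 1 and 3. The Ink4a window had 1 GGGTG match and no GGGCGG, the Arf window 1 and 2, and the Cdkn2b window 2 and 0. Among 32851 RefSeq windows of the same length, 52.0% held GGGTG and 32.7% held GGGCGG. The letters GGGGCC, the core of a G-rich element known for PLAGL1, occurred in 22.0% of all windows. They occurred once in the Cdk4 window and once in the Cdkn2c window, each time overlapping a GGGCGG match. They did not occur in the Ink4a, Arf or Cdkn2b windows. At Cdkn2c the GGGGCC letters (-36 to -31 bp) and the 3 GGGCGG matches lay outside the PLAGL1 peak (-339 to -131 bp). GC content was 64.4% for Cdk4, 77.2% for Cdkn2c, 60.0% for Ink4a, 78.4% for Arf and 53.6% for Cdkn2b, against a median of 52.4% over all windows. These matches describe letters and not bound sites.

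H3K4me3 marked the start of 8 of the 10 genes, against 51.3% of all protein-coding genes. The exceptions by name were Ccnd2 and Cdk6. The highest score belonged to Cdk4 (1362, rank 1655 of 16251), followed by the inhibitors Cdkn1b (1315, rank 1951), Cdkn2c (1264, rank 2334) and Cdkn1a (1012, rank 4497). Cdkn2b had 917 and Ccnd1 had 681. The median was 617 over the whole list and 790 over peaks within 3 kb of a TSS, so Ccnd1 was below the latter. Per gene, the highest score within 3 kb of the TSS had a median of 964.5 in the 8 genes and 831 over all marked genes. Several of these peaks were broad: 3052 bp at Ccnd3, 2598 bp at Cdkn1b, 2567 bp at Ccnd1 and 2284 bp at Cdkn2c, with 94.4% to 99.0% of the list narrower. Cdk4, which had the highest score, had a peak of 1363 bp, and 63.0% of the list was narrower.

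Of the 8 marked genes, 4 had a PLAGL1 peak at most 3 kb from the TSS: Cdk4, Cdkn1a, Cdkn2a and Cdkn2c. The share among all marked genes, non-coding ones included, was 10.1%. These are 1 kinase and 3 of the 5 inhibitors. Counts of genes go by the name the annotation gave to a peak. By position, a PLAGL1 peak of 49 named for the neighbouring Taf8 (chr17:47813031-47813213) lay from -2945 to -2763 bp of the upstream Ccnd3 start, within the same 3 kb, while no PLAGL1 peak of that distance carried the name of a D-type cyclin. Cdk4 had the highest score of the 8 PLAGL1 peaks (97, rank 173 of 3463). The other starts had 47 at Cdkn2a, 47 at Cdkn2c and 46 at Cdkn1a, against a list median of 40. The remaining 4 peaks were farther from a start: 2 in Ccnd3 (40 and 30), 1 in Cdkn2a (72) and 1 assigned to Cdkn2b (50). KLF4 sites lay in the H3K4me3 peak at the start of 6 of the 8 genes, against 67.8% of all marked genes, and Ccnd1 and Cdkn2a were without one. By peak name, all 3 features met at Cdk4, Cdkn1a and Cdkn2c, 3 of 8 genes, against 9.37% of marked genes. Of the 1228 marked genes with a PLAGL1 peak at the TSS, 1138 also had a KLF4 site there. The share with all 3 therefore largely repeats the share with PLAGL1. By position the upstream Ccnd3 start had all 3 within 3 kb as well, but only through the Taf8 peak. That peak lay outside the Ccnd3 mark, 94 bp from the Taf8 start and inside the H3K4me3 peak of Taf8.

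**Figure D1:**
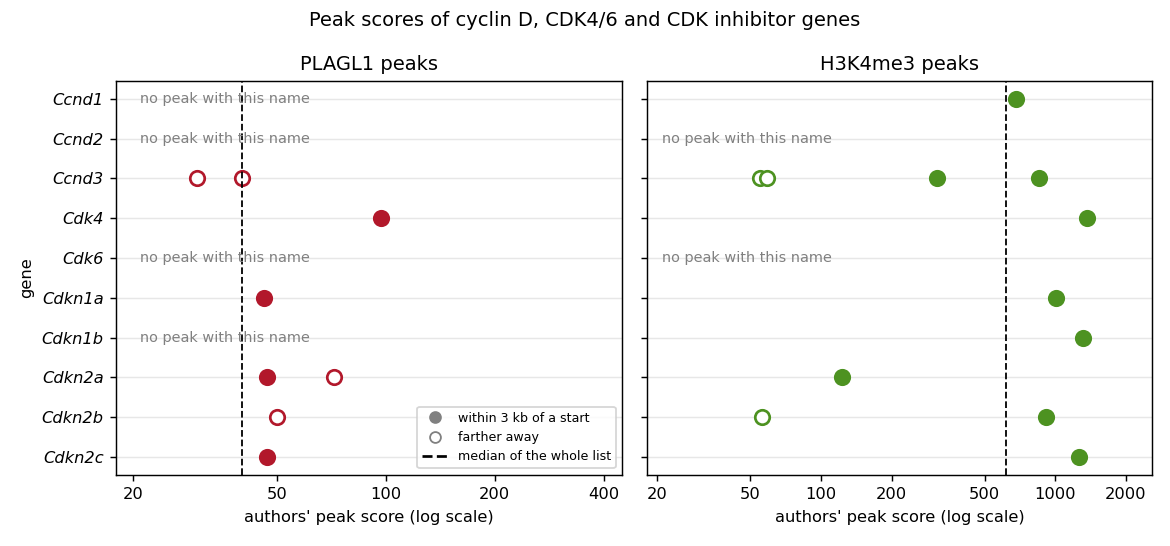
Authors' peak scores (log axis) of all PLAGL1 peaks (left) and H3K4me3 peaks (right) named for each of the 10 genes; filled points lie within 3 kb of a TSS, open points farther away, and dashed lines are the medians of the whole lists (40 and 617). Cdk4 is highest in both panels, at 97 and 1362, and Ccnd2 and Cdk6 have no point.

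Among the cyclins, Ccnd3 had the most regions, with 2 PLAGL1 peaks, 4 H3K4me3 peaks and 11 KLF4 sites. Ccnd3 encodes cyclin D3, and the annotation gives it an upstream start (NM_001081635) and a downstream one (NM_007632). The H3K4me3 peak at the downstream start (chr17:47904267-47907318, mm39, as are all peak and site positions) scored 855 and the one at the upstream start (chr17:47815835-47817246) scored 314. A KLF4 site covered each start, from -282 to +177 bp at the upstream start and from -307 to +322 bp at the downstream one. A second KLF4 site lay from +2103 to +2568 bp in the downstream peak. In the authors' deposited table the mean log2 CPM of these 3 sites was 5.89, 6.05 and 5.97, above that of 76.3% to 80.3% of all sites. There were 5 KLF4 sites within 20 kb of the upstream peak and 4 within 20 kb of the downstream one, against a median of 1 over 13026 H3K4me3 peaks near a TSS. Only 3.05% of those peaks had 5 or more.

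Between the Ccnd3 starts H3K4me3 was sparse. Intron 1 held H3K4me3 peaks of 55 (chr17:47822135-47822737) and 59 (chr17:47829102-47829348). The PLAGL1 peak of 40 (chr17:47829238-47829344) lay wholly in the second of these, 13315 bp from the upstream start, with the nearest KLF4 site 4630 bp away. The PLAGL1 peak of 30 (chr17:47837949-47838062) overlapped neither H3K4me3 nor KLF4, and the nearest KLF4 site was 3335 bp away. The peak of 55 was overlapped by a KLF4 site with a mean log2 CPM of 5.83 in the authors' deposited table. A KLF4 site on no peak (chr17:47818657-47819156) lay from +2681 to +3180 bp of the upstream start. Its mean log2 CPM of 6.34 in the authors' deposited table was above 86.1% of sites and above the sites on the Ccnd3 starts. PLAGL1 and KLF4 thus lay near each other in this intron without sharing a region.

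Ccnd1, which encodes cyclin D1, had 1 H3K4me3 peak (chr7:144491422-144493988) in the region of intron 1, 863 bp from the TSS. It had no PLAGL1 peak and no overlapping KLF4 site. The nearest KLF4 sites were 1107 and 9274 bp from the peak, with mean log2 CPM of 4.26 and 4.72 in the authors' deposited table, below the median of 5.08 over all sites. Ccnd2, which encodes cyclin D2, is the gene next to 9330179D12Rik in RefSeq's order. An H3K4me3 peak named for that non-coding gene (chr6:127126001-127128027) scored 784, was overlapped by no KLF4 site and had the nearest one 713 bp away. On the other side of Ccnd2, the peak of Tigar (chr6:127085780-127086806) scored 518 and was overlapped by 1 KLF4 site. Because the annotation gives a peak to 1 gene only, a mark at a shared or neighbouring start can carry another name, so the absence of Ccnd2 from the lists is an absence of its name.

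Cdk4 had the most compact arrangement. Its PLAGL1 peak (chr10:126899054-126899536) ran from -350 to +132 bp around the TSS and was 483 bp wide, against a median of 188 bp for the list. The KLF4 site (chr10:126899007-126899789) ran from -397 to +385 bp and contained the whole PLAGL1 peak. The H3K4me3 peak (chr10:126899179-126900541) began at -225 bp and extended to +1137 bp, and it covered 358 bp of the PLAGL1 peak. The KLF4 site had a mean log2 CPM of 6.83 in the authors' deposited table, above 93.1% of sites, and was the only one within 20 kb. The printed Cdk4 window lay wholly within the PLAGL1 peak and the KLF4 site.

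Cdk6, the other D-cyclin kinase, had no named peak. An H3K4me3 peak in intron 5 of its transcript NM_009873 (chr5:3551760-3552308) scored 38, rank 15679, and was named for Fam133b, at a distance of -41799 bp from its start. A KLF4 site overlapped it, with a log2 fold change of 0.03 in the authors' deposited table. No H3K4me3 or PLAGL1 peak was annotated to the promoter of NM_009873.

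At Cdkn1a, which encodes the p53 target p21, PLAGL1 lay away from the start. The H3K4me3 peak (chr17:29312473-29314477) ran from -270 to +1734 bp. Of its 2 KLF4 sites, 1 covered the start from -226 to +175 bp and the other (chr17:29313254-29314516) ran from +511 to +1773 bp over 1263 bp, against a median site width of 578.5 bp. This second site had the highest mean signal of the 26, with a mean log2 CPM of 7.29 in the authors' deposited table, above 96.7% of all sites. The PLAGL1 peak (chr17:29314323-29314448) lay inside it, from +1580 to +1705 bp in intron 1, within a CpG island by the authors' annotation. PLAGL1 therefore coincided with the stronger KLF4 site and with the downstream edge of the mark, and not with the site on the start.

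Cdkn2c, which encodes the INK4 protein p18, had its PLAGL1 peak (chr4:109524084-109524292) from -339 to -131 bp upstream of the start of NM_001301368. The KLF4 site (chr4:109523719-109524398) ran from -445 to +234 bp and contained it, and the H3K4me3 peak (chr4:109522130-109524413) ran from -460 to +1823 bp. The site had a mean log2 CPM of 6.42 in the authors' deposited table, above 87.6% of sites. Cdkn1b, which encodes p27, had a marked start (chr6:134896709-134899306) with a KLF4 site from -272 to +353 bp and no PLAGL1 peak. That site had a mean log2 CPM of 5.91 in the authors' deposited table, above 77.1% of sites. These inhibitors thus differed in PLAGL1, which lay upstream of the start at Cdkn2c, downstream of it at Cdkn1a and at neither place at Cdkn1b.

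**Figure D2:**
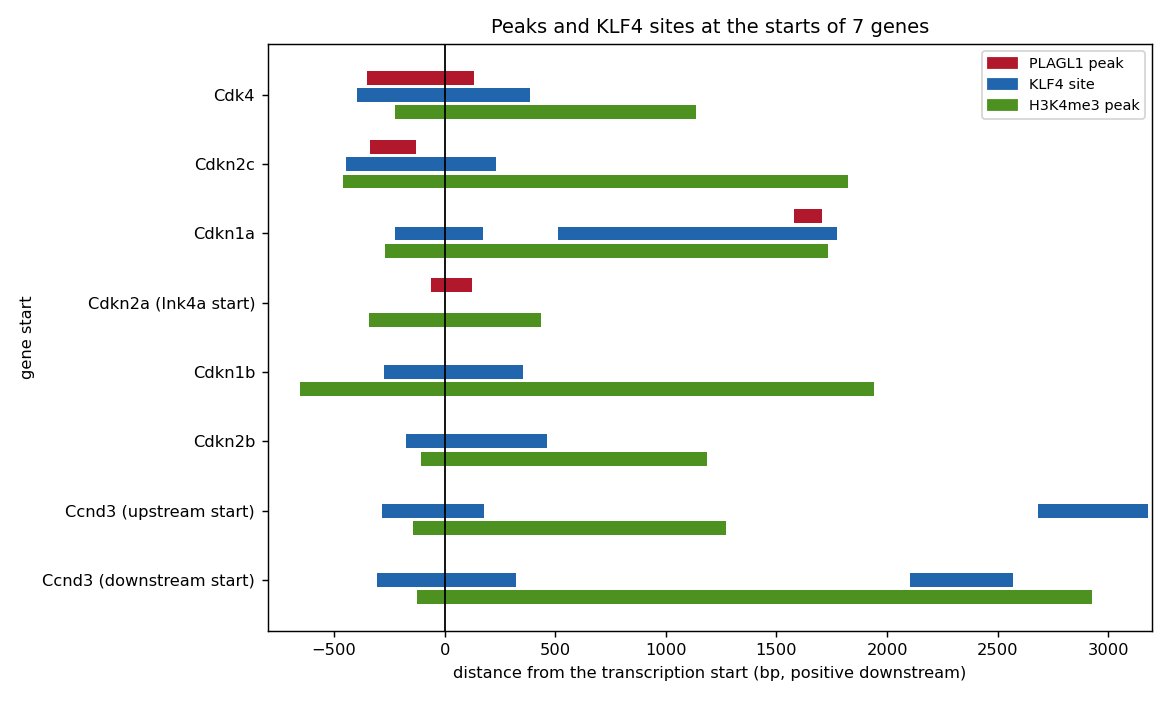
Extent of PLAGL1 peaks, KLF4 sites and H3K4me3 peaks around 8 starts of 7 genes, in bp from the TSS with downstream positive. At Cdk4 and Cdkn2c the PLAGL1 peak lies inside a KLF4 site over the start, at Cdkn1a inside a second KLF4 site from +511 to +1773 bp, and at the Ink4a start of Cdkn2a there is no KLF4 site.

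Cdkn2a encodes p16 (Ink4a) and p19 (Arf) from separate first exons, and Arf acts on MDM2 and p53 in place of the kinases. The starts differed in mark and binding. The Ink4a start (NM_001040654) had an H3K4me3 peak (chr4:89199993-89200771) with a score of 123, rank 12576 and a width of 779 bp, from -342 to +436 bp. The peak on the Arf start (chr4:89212360-89214320) scored 1085, rank 3818, over 1961 bp, and was annotated to the promoter of NM_009877 but named for the neighbouring Gm12610. It lay from -13891 to -11931 bp from the Ink4a start and was overlapped by no PLAGL1 peak and no KLF4 site. The score of the Cdkn2a name in these lists therefore refers to the weaker start.

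PLAGL1 was on the weaker start. Its peak (chr4:89200304-89200489, score 47) ran from -60 to +125 bp over the Ink4a start, inside the H3K4me3 peak, and the nearest KLF4 site was 8398 bp away. Cdkn2a was the only one of the 8 marked genes with PLAGL1 and no KLF4 site at the TSS. That combination was found at 0.741% of marked genes, 90 of the 1228 with a PLAGL1 peak. A second PLAGL1 peak (chr4:89194541-89194646) scored 72, rank 373, in intron 2 of the Arf transcript, 5836 bp from the Ink4a start. It overlapped no H3K4me3 peak, and the nearest KLF4 site was 2635 bp away, with a mean log2 CPM of 3.77 in the authors' deposited table, above 4.99% of sites.

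Cdkn2b, which encodes p15 and shares the locus, had a marked start (chr4:89228082-89229378, score 917) from -109 to +1187 bp with a KLF4 site from -175 to +462 bp. That site was near the middle of the list, with a mean log2 CPM of 5.07 in the authors' deposited table, above 49.5% of sites. No PLAGL1 peak lay at this start. The PLAGL1 peak of 50 named for Cdkn2b (chr4:89358290-89358409) had a distance of -129080 bp from its start and lay in an intron of the non-coding transcript NR_132431, and a weak H3K4me3 peak of 56 (chr4:89328719-89329197) had a distance of -99689 bp and lay in the same transcript. The 3 starts of the locus thus carried 3 different combinations: KLF4 with the mark at Cdkn2b, the mark alone at Arf, and PLAGL1 with a weak mark at Ink4a.

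**Figure D3:**
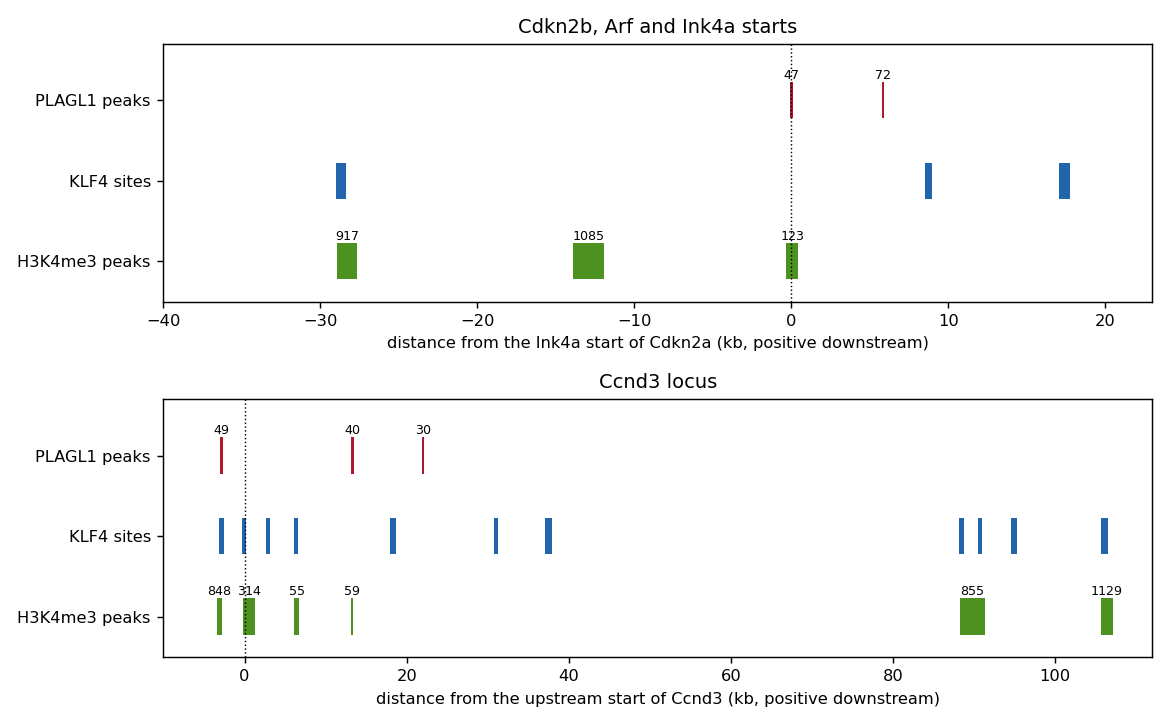
PLAGL1 peaks, KLF4 sites and H3K4me3 peaks over the Cdkn2a and Cdkn2b locus (top) and the Ccnd3 locus (bottom), in kb from the Ink4a start and from the upstream Ccnd3 start, with the authors' peak scores printed above peaks of every gene name in view. In the top map the marks score 917 at Cdkn2b, 1085 at Arf and 123 at Ink4a, where the PLAGL1 peak of 47 sits.

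Of the 26 KLF4 sites, 10 overlapped a peak of the 10 genes and 16 lay beside one. The 16 were weaker as a group, with a median of the mean log2 CPM of 5.13 in the authors' deposited table, against 5.97 for the 9 sites on marked starts and 5.08 for all sites. Of the 16 sites, 6 overlapped an H3K4me3 peak of a neighbouring gene: Taf8 and Bysl beside Ccnd3, Trp53cor1 (the non-coding RNA lincRNA-p21) beside Cdkn1a, Lockd (a non-coding RNA downstream of Cdkn1b), and Faf1 and 9630013D21Rik beside Cdkn2c. These 6 sites belong to other starts by position. At Taf8 the PLAGL1 peak of 49 was present as well. The farthest site inside the 20 kb limit was 14926 bp from a Ccnd3 peak, with a log2 fold change of -0.25 in the authors' deposited table, and the nearest outside was 20017 bp away, with 0.20.

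KLF4 occupancy was then compared between Plagl1ko and control cells. No site of these genes passed an adjusted p of 0.05 in edgeR's test in the authors' deposited table, where 0.0473% of all sites did. The lowest adjusted p among the 26 was 0.556. At an unadjusted p under 0.05 there were 2 of 26 sites (7.69%) in the authors' deposited table, against 6.46% of all sites. Which genotype is on top of the fold change is not stated in the sources used here, so only its sign is given, without a direction. The intervals given are approximate 95% intervals computed from the fold change, F and p of the table.

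The site of lowest p was the Cdk4 promoter. Its log2 fold change was 0.30 (0.10 to 0.50) with p = 0.00334 and adjusted p = 0.556 by edgeR in the authors' deposited table, rank 124 of 21130. It was also the only site on a marked start of these genes with a positive sign. The other site with p under 0.05 lay 3164 bp from the downstream Ccnd3 peak (chr17:47910483-47911216), with 0.29 (0.01 to 0.57), p = 0.0459 and adjusted p = 0.765 by edgeR in the authors' deposited table. Neither is a called difference.

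The other sites that overlapped a PLAGL1 peak had negative fold changes with intervals that include 0. The strong Cdkn1a site had -0.02 (-0.20 to 0.16) in the authors' deposited table, the narrowest interval of the 26. The Cdkn2c site had -0.17 (-0.40 to 0.06) with adjusted p = 0.850 by edgeR in the authors' deposited table. The site beside Ccnd3 on the PLAGL1 peak named for Taf8 had -0.08 (-0.30 to 0.14) in the authors' deposited table. The sites shared with PLAGL1 thus had no common sign.

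The other 6 sites on marked starts overlapped no PLAGL1 peak. Their values in the authors' deposited table were -0.08 (-0.36 to 0.20) at the upstream and -0.04 (-0.29 to 0.22) at the downstream Ccnd3 start. The second site in the downstream Ccnd3 peak had -0.23 (-0.50 to 0.04) in the authors' deposited table. In the authors' deposited table Cdkn1b had -0.13 (-0.40 to 0.14), Cdkn2b had -0.02 (-0.40 to 0.35) and the site on the Cdkn1a start had -0.17 (-0.45 to 0.11). Of the 9 sites on marked starts 8 were negative, with a median of -0.08, while 52.8% of all KLF4 sites in H3K4me3 peaks near a TSS were negative, with a median of -0.01. For 7 of the 9 the interval lay within 0.5 of 0 on the log2 scale. Over all 26 sites 17 were negative, against 49.7% of all sites, and the values ran from -0.31 to 0.37 in the authors' deposited table.

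The widest intervals were mostly at weaker sites. The site 2635 bp from the intronic Cdkn2a PLAGL1 peak had -0.29 (-0.98 to 0.39), and a farther site beside Cdkn2a had 0.37 (-0.14 to 0.88), in the authors' deposited table. The sites beside Ccnd1 had -0.22 (-0.75 to 0.31) and -0.15 (-0.59 to 0.28) in the authors' deposited table. A site in the Ccnd3 locus (chr17:47846780-47847185) had 0.11 (-0.35 to 0.58) in the authors' deposited table. The site at Lockd beside Cdkn1b had -0.31 (-0.69 to 0.08) and the one at 9630013D21Rik beside Cdkn2c had 0.37 (-0.17 to 0.91) in the authors' deposited table. Such intervals include changes of more than 0.5 on the log2 scale, so a moderate difference at these sites is not excluded. Of all 26 intervals, 13 lay within 0.5 of 0, so this limit was not particular to the sites named here.

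**Figure D4:**
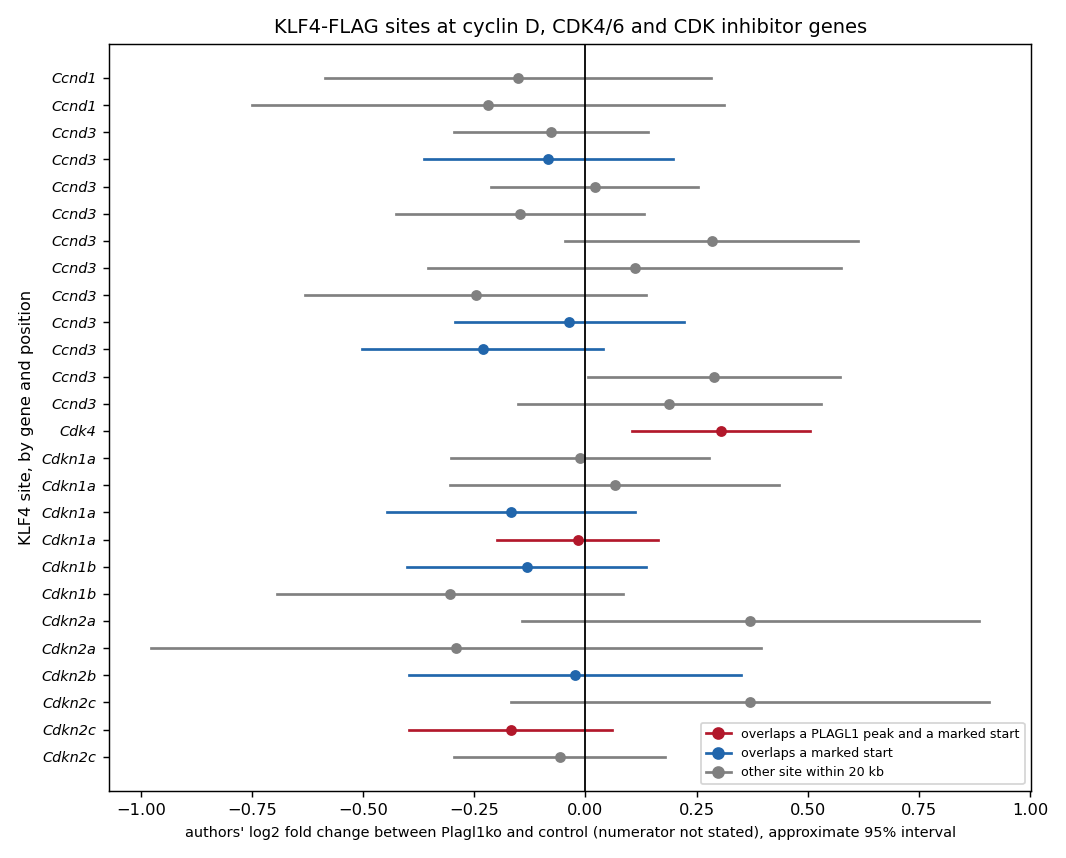
Log2 fold change of KLF4-FLAG between Plagl1ko and control (numerator not stated) at the 26 sites, from the authors' deposited table. Approximate 95% intervals are drawn as lines. Colours separate sites on PLAGL1 peaks, on marked starts and elsewhere, counting only peaks named for the genes described here. The site on the Taf8 PLAGL1 peak and the sites on marks of other neighbouring genes are therefore drawn as elsewhere. The Cdk4 site stands at 0.30 with an interval from 0.10 to 0.50, and 24 of the 26 intervals include 0.

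Other cell-cycle genes, mainly of the G1 to S transition but with genes of mitosis and of the p53 pathway among them, gave a scale for these counts. Of 32 such genes 30 had a marked start, with the highest scores at E2f4 (1502), Pcna (1480) and Fzr1 (1382), which encode an E2F factor, a DNA polymerase clamp and an activator of the anaphase-promoting complex. PLAGL1 peaks within 3 kb of the TSS were found at 3 of the 30: Pcna (57 and 55), Fzr1 (39) and Cdkn2d (21), the last encoding the INK4 protein p19. A KLF4 site lay in the H3K4me3 peak of 27 of the 30. All 3 features met at Pcna, Fzr1 and Cdkn2d, as at Cdk4, Cdkn1a and Cdkn2c, although the PLAGL1 peak of Fzr1 did not itself overlap a KLF4 site. KLF4 with the mark and no PLAGL1 peak of the gene's own name, the combination of Ccnd3, Cdkn1b and Cdkn2b, was found at 24 of the 30, among them Ccne1, Cdk2, Rb1 and E2f1, and at 58.4% of all marked genes. The mark alone, as at Ccnd1, was found at Cdkn1c, E2f2 and E2f4. None of the 30 had PLAGL1 without KLF4, as at Cdkn2a. Their 29 KLF4 sites on marked starts had a median log2 fold change of 0.02 in the authors' deposited table, 13 of them negative, and none had p under 0.05 (lowest adjusted p = 0.839 by edgeR, at Rb1).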

How the data were processed

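CUT&Tag libraries were grouped by their titles. The submitters' processing notes name HOMER 4.11.1, MACS3 3.0.2, Bowtie2 2.5.4, edgeR 4.2.0, Trim Galore 0.6.10, DiffBind 3.16.0, SAMtools 1.21, GATK 4.5.5.0 and deepTools 3.5.5 without saying what each did, and the build mm39. For duplicates, reads with several matches and scaling between libraries, the handling is likewise not given in the sources used here. PLAGL1 peaks are of the HA library against IgG, per the file name; each peak has a deposited score, a whole number from 20. The KLF4 table holds the authors' log2 fold change, mean log2 CPM, F score, p-value and adjusted p-value per consensus site, and no values per library, so counts were not refitted. A site was called when the authors' edgeR adjusted p was under 0.05.

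Computation used scipy 1.17.1, numpy 2.4.6 and pandas 2.3.3 in Python 3.11.15, with matplotlib 3.10.9 for plots. Overlap meant at least 1 bp. Dividing the size of the log2 fold change by the root of F gave an approximate standard error, and degrees of freedom solved from F and p gave the 95% interval (median 87.6, used where F was under 0.5). These steps were tested on simulated data, and the overlaps on fixed example regions with known answers. Starts were computed from peak centres and deposited distances. RefSeq starts on GRCm38.p6 were matched to them by distances to neighbouring starts, each within its own build and to 20 bp. The Arf window is the further of the 2 RefSeq starts of Cdkn2a. Promoter windows were found for 8 of the 10 genes, all but Ccnd1 and Ccnd2, and the map of starts leaves out Ccnd1 because its strand came from that table. All 10 genes, with their peaks, were named by rule, with the other cell-cycle genes that had PLAGL1 at the TSS or the 3 highest H3K4me3 scores. Ccne1, Cdk2, Rb1, E2f1, Cdkn1c and E2f2 were named after their values were seen. The genes and lists were chosen with earlier results of these data known, so no test was made over them. Columns of other samples numbered 0.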

Additional observations from a re-analysis of the deposited data

How the results depend on the processing

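Of the counts over the 10 genes, the number of KLF4 sites depended on the window. It was 26 within 20 kb, 10 with overlap only and 40 within 50 kb. A limit of 10 kb gave 22 sites, and peaks within 3 kb of the TSS alone gave 24. At an unadjusted p under 0.05 the authors' deposited table called 2 sites, against 0 at an adjusted p under 0.05 or under 0.1. Marked genes were 8 with a TSS limit of 3 kb or 1 kb and 7 in the upper 50% of the score. Genes with PLAGL1 at the TSS were 4, with 3 at 1 kb (without Cdkn1a), 4 in the upper 50% and 6 at any distance. Genes with KLF4 in the marked peak stayed at 6 with 50% overlap and in the upper 50%. Centring the fold changes on the median of all sites left the median of the 9 promoter sites at -0.09, against -0.08. No paired analysis was possible because the KLF4 table has no values per library. For the same reason DESeq2, other count filters and leaving out a replicate were not run. PLAGL1 and H3K4me3 rest on 1 library each, so their scores have no error.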

Other observations

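The Cdk4 promoter window held the letters CACGTG, the E-box bound by MYC and related factors, 4 times within 250 bases. This was looked for after the window had been read. At least 1 match was present in 6.02% of 32851 RefSeq windows, and 4 or more in 7 of them. Among the windows of the other genes described here Cdk6 had 1 match and the rest had 0.

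The remaining promoter windows of the 10 genes also differed in their letters. The start of Cdkn1a that carried the mark had 2 GGGCGG matches and 1 GGGGCC match, and its other RefSeq start had neither. The Cdkn1b window had 1 GGGCGG and 2 GGGGCC matches and no PLAGL1 peak, and the Cdk6 window had 2 GGGGCC matches and no named peak of any kind. The downstream Ccnd3 window had 1 GGGCGG and 2 GGGGCC matches and no PLAGL1 peak, and the upstream one had 2 GGGCGG matches and no GGGGCC. The second RefSeq start of Cdkn2c had 0 of either.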
